A study of Mus musculus with 9 samples.

Results

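The genes described here encode the proteins of the mitochondrial ribosome. They were taken from the deposited count table as every protein-coding row whose symbol begins with Mrpl (large subunit) or Mrps (small subunit) followed by a number, which gave 78 of 27370 genes, 49 Mrpl and 29 Mrps, on 17 chromosomes. The rule itself uses no measured value, but it was set with earlier results of these data known. Mitochondria carry their own ribosome, which translates the few proteins that the mitochondrial genome encodes, all of them subunits of the respiratory chain and the ATP synthase. Both of its rRNAs are transcribed from mitochondrial DNA, whereas all of its proteins are encoded in the nucleus, made on cytosolic ribosomes and imported. Some of these proteins descend from bacterial ribosomal proteins and others exist only in mitochondria, and the symbols do not separate these classes.

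PolyA RNA was sequenced from sorted stromal cells of 4-month-old Wt1CreERT2 RosatdTomato CD64DTR mice, and every group, controls included, carried these 3 alleles. The alleles are, by name, a tamoxifen-inducible Cre at Wt1, a Cre-dependent tdTomato reporter and a diphtheria toxin receptor at CD64, a receptor of macrophages and monocytes. The groups were RPF depleted (tdTomato+ red pulp fibroblasts from spleens of diphtheria-toxin-treated mice), RPF steady (the same gate, spleens of untreated mice) and FRC steady (tdTomato- fibroblastic reticular cells from 78 lymph nodes of untreated mice), each with 6 mice, 45000 cells and 3 libraries of 2 pooled mice. Cells were depleted of CD45+ cells and stained for CD45, gp38, CD31 and VCAM1 before the sort. No source used here gives the dose or timing of the toxin. No group received the toxin without the depletion, so toxin exposure and loss of CD64+ cells cannot be told apart. Below, after depletion means depleted RPF compared with steady-state RPF. FRC and untreated RPF differ in organ, reporter status and sort gate together, and these cannot be told apart.

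Total counts were 25414645 to 43879806 per library, and the members took 0.296 to 0.308% of them in depleted RPF, 0.238 to 0.247% in steady-state RPF and 0.115 to 0.136% in FRC. Of the 78 members, 77 passed the filter on low counts. The exception was Mrpl53, with 2, 3 and 2 counts summed over the depleted RPF, steady-state RPF and FRC libraries. It shares 88.0% of its exonic bases with other genes, chiefly Gm42688 on the same strand. Its low counts therefore do not show that it was little expressed. The spleen stromal factor Tlx1 was far higher in both RPF groups than in FRC (198, 251 and 239 CPM, reads scaled to a common library total, in depleted RPF, 371, 419 and 434 CPM in steady-state RPF, and 0.0911, 0.0682 and 0.388 CPM in FRC). The FRC chemokine gene Ccl21a was at 0.517, 1.24 and 0.179 CPM in depleted RPF, at 0.66, 0.494 and 0.562 CPM in steady-state RPF, and above 1000 CPM in each FRC library. The 7 fibroblast markers (collagens, PDGF receptors, Vcam1 and Pdpn) summed to 5692 to 6308 CPM in depleted RPF, 6602 to 7650 CPM in steady-state RPF and 24740 to 25811 CPM in FRC. After depletion 1 rose (Pdgfrb) and 3 fell, and against FRC 1 was higher in steady-state RPF (Pdgfrb) and 6 were lower. Pdpn, the gene of gp38, was at 0.0223 to 0.144 CPM in depleted RPF and 0.0331 to 0.197 CPM in steady-state RPF, against 71.1 to 78.4 CPM in FRC. The untreated replicate 1 libraries of RPF and FRC held almost no Y-linked counts (24 and 69), against 2315 to 6124 in the other 7. Xist, the X-linked RNA of female cells, was at 223 and 177 CPM of the total count in them, against 0 to 3.74 CPM in the other 7. By these counts they were female pools, 1 in each untreated group, and the depleted group held none.

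The promoters of 4 members from both comparisons are printed because they carry letters of the factors known to drive many nuclear genes for mitochondria. NRF1 and the ETS factor GABP activate respiratory chain and mitochondrial translation genes, and YY1 binds many housekeeping promoters. Sequences are RefSeq's (GRCm38.p6), 250 bases before to 30 after the annotated start, with motif matches in capitals: GCGCANGCGC for NRF1, CCGGAAG for GABP and AAGATGGC for YY1, each on either strand. A GABP and an NRF1 match lie in Mrpl17, an NRF1 match in Mrpl12, an NRF1 match in Mrpl9, and a YY1 and a GABP match in Mrps12.
Mrpl17, chr7:105811058-105811337, minus strand: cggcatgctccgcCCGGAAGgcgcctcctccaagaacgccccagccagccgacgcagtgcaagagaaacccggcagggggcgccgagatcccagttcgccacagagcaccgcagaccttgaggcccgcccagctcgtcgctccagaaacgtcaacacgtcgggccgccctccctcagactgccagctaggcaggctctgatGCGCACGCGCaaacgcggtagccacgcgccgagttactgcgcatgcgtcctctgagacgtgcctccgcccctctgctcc
Mrpl12, chr11:120484387-120484666, plus strand: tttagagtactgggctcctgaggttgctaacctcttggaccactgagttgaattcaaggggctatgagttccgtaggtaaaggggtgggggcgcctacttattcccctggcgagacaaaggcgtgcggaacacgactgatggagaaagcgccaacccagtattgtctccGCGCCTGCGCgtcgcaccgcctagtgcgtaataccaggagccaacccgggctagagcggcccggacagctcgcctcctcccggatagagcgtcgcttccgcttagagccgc
Mrpl9, chr3:94443086-94443365, plus strand: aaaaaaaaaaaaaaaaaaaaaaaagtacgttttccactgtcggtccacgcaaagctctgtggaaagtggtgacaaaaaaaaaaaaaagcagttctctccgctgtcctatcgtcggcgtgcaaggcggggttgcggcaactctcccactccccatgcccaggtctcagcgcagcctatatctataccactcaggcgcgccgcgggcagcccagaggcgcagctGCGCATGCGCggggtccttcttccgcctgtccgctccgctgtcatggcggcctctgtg
Mrps12, chr7:28741792-28742071, minus strand: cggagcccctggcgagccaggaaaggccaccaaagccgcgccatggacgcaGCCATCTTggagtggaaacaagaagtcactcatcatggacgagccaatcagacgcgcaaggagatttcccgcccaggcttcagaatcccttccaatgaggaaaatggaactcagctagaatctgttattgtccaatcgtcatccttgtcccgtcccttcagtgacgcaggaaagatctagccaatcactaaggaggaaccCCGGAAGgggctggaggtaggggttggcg

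RefSeq promoters matched 69 of the 78 members, and 68 of the tested ones were searched over the full window of 300 bases. At least 1 of the 3 motifs stood in 61.8% of them, against 31.3% of 10221 tested protein-coding genes. The NRF1 letters stood in 19.1% of member promoters and 11.2% of all, the GABP letters in 36.8% and 19.3%, and the YY1 letters in 17.6% and 5.08%. Any motif was present in 6 of 11 searched promoters of members higher after depletion and in 7 of 11 of those higher in steady-state RPF than in FRC. These are matches of letters, and no binding was measured. A head-to-head neighbour starting within 1000 bases was found for 18 of the 77 tested members (23.4%), against 9.82% of tested protein-coding genes.

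Summed over the 78 members, TMM-normalised levels were 2834, 2818 and 2883 CPM in depleted RPF, 2079, 1986 and 2073 CPM in steady-state RPF, and 1514, 1706 and 1508 CPM in FRC. The depleted RPF libraries lay above all others and the FRC libraries below all others. TMM factors, which rescale each library to its bulk of genes, were 1.05 to 1.07 in depleted RPF, 1.18 to 1.20 in steady-state RPF and 0.765 to 0.827 in FRC. The ratio of means was 1.39 for depleted over steady-state RPF and 1.30 for steady-state RPF over FRC. On the total count alone, without TMM, these ratios were 1.24 and 1.94. In such bulk libraries, a change in the number of cells of a type and a change in RNA per cell cannot be told apart.

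**Figure D1:**
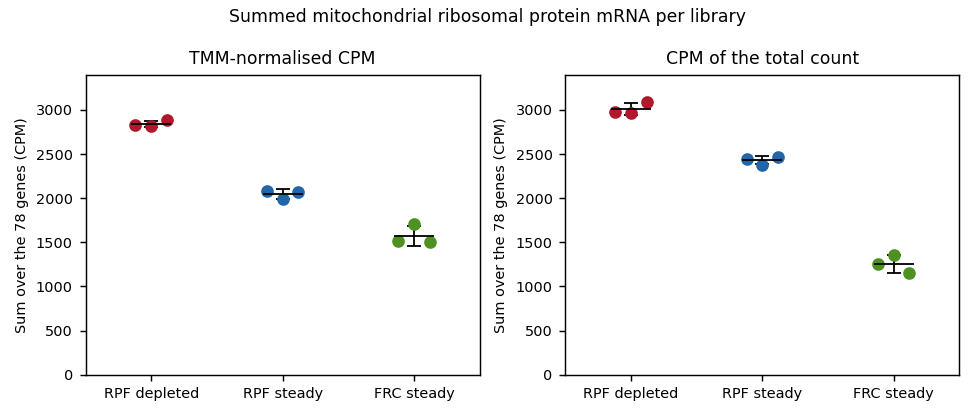
Summed level of the 78 mitochondrial ribosomal protein genes in each library (points), with the group mean and SD (bars, n = 3), in TMM-normalised CPM (left) and in CPM of the total count (right). The groups do not overlap on either scale, with 2818 to 2883 CPM in depleted RPF, 1986 to 2079 CPM in steady-state RPF and 1508 to 1706 CPM in FRC on the TMM scale.

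Per kilobase of transcript, members ranged widely. Averaged over all libraries, Mrpl28 (110 CPM per kb), Mrpl17 (103), Mrpl20 (95.0), Mrps18a (78.7) and Mrpl36 (74.9) were highest, and Mrpl23 (1.70), Mrps36 (3.28), Mrps22 (4.56), Mrps33 (5.05) and Mrps31 (5.63) were lowest. Mrps36 was later found to belong to the 2-oxoglutarate dehydrogenase complex rather than to the ribosome. The order of the highest members depended on the cells. Mrpl28, counterpart of bacterial L28, led in FRC with 120 ± 3.76 CPM per kb and had 104 ± 4.30 in depleted RPF (SD, n = 3 each), behind Mrpl17 at 182 ± 18.4 and Mrpl20 at 165 ± 14.0. In steady-state RPF, Mrpl28 at 106 ± 6.29 was followed by Mrps25 at 90.0 ± 8.94 and Mrpl36 at 88.1 ± 4.26, which lie within their spread of each other. The median coefficient of variation between libraries of a group was 12.4% in depleted RPF, 12.5% in steady-state RPF and 24.9% in FRC. Over all tested genes, which include genes of low counts, it was 27.3, 25.5 and 34.0%. Genes of like abundance were not compared.

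After depletion, 14 of the 77 tested members rose and 0 fell (edgeR quasi-likelihood test, Benjamini-Hochberg adjusted p under 0.05 over 15103 genes). Over all tested genes 11.1% were called higher and 9.96% lower. At an unadjusted p under 0.05 edgeR gave 23 members higher and 0 lower, DESeq2 called 17 higher and 1 lower, and limma-voom called 19 higher and 0 lower. The lower member in DESeq2 was Mrpl34 (log2 fold change -0.65, adjusted p = 0.0460). It had 9.59, 13.2 and 10.8 CPM in depleted RPF and 16.5, 16.2 and 18.4 CPM in steady-state RPF. The median log2 fold change was 0.35 over the members, against -0.09 over all tested genes, and 61 members were on the higher side, against 45.9% of all. Libraries did not overlap for 37 members on the higher side and 4 on the lower side, against 21.4 and 23.0% of all genes.

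The largest rise was that of Mrps18b, one of 3 mammalian counterparts of the single bacterial S18 protein (chromosome 17, 35910379 to 35916389). It had 26.9, 29.4 and 33.1 CPM in depleted RPF, against 9.37, 5.96 and 6.45 CPM in steady-state RPF and 7.10, 8.53 and 11.5 CPM in FRC. Every depleted library stood above every other library, and the log2 fold change over steady-state RPF was 2.04 ± 0.31 (SE, adjusted p = 0.00188). Its paralogs Mrps18a, which sits in the large subunit, and Mrps18c had log2 fold changes of 0.28 and 0.39 and were not called (adjusted p = 0.298 and 0.576). Antisense Gm16279 covers 30.5% of the exonic bases of Mrps18b and averaged 0.105 CPM in depleted RPF and 0.0268 CPM in steady-state RPF. Ppp1r10, a phosphatase-targeting subunit gene whose start lies 45 bases from that of Mrps18b on the other strand, averaged 41.3 CPM in depleted RPF and 42.6 CPM in steady-state RPF (log2 fold change -0.04, adjusted p = 0.930).

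Of the bacterial-type large subunit proteins, 9 of 30 (30%) rose, against 2 of 20 tested mitochondria-specific ones (10%). In the small subunit, 2 of 16 bacterial-type proteins (12.5%) and 1 of 10 mitochondria-specific ones (10%) rose. The last was Mrps18b, counted there although it is named above as a counterpart of bacterial S18. All but the first of these shares were near the 11.1% of all tested genes. The difference between these classes was not tested. Mrpl17, counterpart of bacterial L17 and the most abundant member per kilobase in depleted RPF, had 156, 143 and 175 CPM in depleted RPF, against 67.9, 62.6 and 69.2 CPM in steady-state RPF. The groups were far apart, with a log2 fold change of 1.25 ± 0.20 (SE, adjusted p = 0.00239). Mrpl15, counterpart of L15, had 75.5, 63.1 and 70.4 CPM in depleted RPF, against 31.6, 29.1 and 30.2 CPM in steady-state RPF. Its log2 fold change was 1.20 ± 0.17 (adjusted p = 0.00109), again with no overlap. Mrpl20, counterpart of L20, an early binder of the large rRNA in bacteria, had 96.9, 84.3 and 83.6 CPM in depleted RPF, against 36.4, 42.7 and 44.5 CPM in steady-state RPF. The log2 fold change was 1.10 ± 0.17 (adjusted p = 0.00184). Mrpl47, counterpart of L29, was less abundant, with 17.2, 15.5 and 20.3 CPM in depleted RPF and 7.32, 6.81 and 7.08 CPM in steady-state RPF (log2 fold change 1.32 ± 0.32, adjusted p = 0.0190).

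Among the mitochondria-specific large subunit proteins, Mrpl37 had 73.5, 80.2 and 65.0 CPM in depleted RPF, against 39.0, 34.0 and 24.8 CPM in steady-state RPF. All depleted libraries lay above all steady-state ones (log2 fold change 1.16 ± 0.22, SE, adjusted p = 0.00556). Mrpl54 rose likewise, by 1.05 ± 0.21 (adjusted p = 0.00735). Apba3, which starts 26 bases from Mrpl54 on the other strand, also rose, with a log2 fold change of 0.74 (adjusted p = 0.0157). In the stalk that recruits translation factors, Mrpl12 had 69.4, 62.2 and 55.3 CPM in depleted RPF, against 28.7, 26.1 and 32.5 CPM in steady-state RPF (log2 fold change 1.10 ± 0.25, adjusted p = 0.0151). The other stalk members, Mrpl10 and Mrpl11, had log2 fold changes of 0.22 and 0.14 and were not called (adjusted p = 0.475 and 0.768).

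For the exit tunnel, through which the new chain leaves, the list held Mrpl22, Mrpl23, Mrpl24, Mrpl44 and Mrpl45. The called Mrpl17 and Mrpl47 were not on this list, so it may not hold every protein near the tunnel. Of the 5 listed, 1 rose, Mrpl24, with 25.8, 26.3 and 31.9 CPM in depleted RPF and 12.1, 14.4 and 16.1 CPM in steady-state RPF (log2 fold change 0.98 ± 0.22, adjusted p = 0.0131). Opposite-strand Rrnad1 covers 26.3% of its exonic bases and averaged 8.59 CPM in depleted RPF and 8.06 CPM in steady-state RPF. The tunnel protein Mrpl45, which binds the inner membrane, had a log2 fold change of 0.34 (adjusted p = 0.294). None of the 5 central protuberance proteins was called by edgeR, DESeq2 or limma-voom, and their log2 fold changes were 0.81 for Mrpl38, 0.45 for Mrpl18, 0.36 for Mrpl46, 0.33 for Mrpl40 and 0.22 for Mrpl48. Of these, 1 had an unadjusted p under 0.05. Mrpl58, a peptidyl-tRNA hydrolase built into the large subunit, had a log2 fold change of 0.45 (adjusted p = 0.180). The remaining called members were Mrpl30 (log2 fold change 0.93), Mrpl2 (0.90), Mrps7 (0.82), Mrps17 (0.62) and Mrpl13 (0.54), counterparts of the bacterial proteins of the same numbers.

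Calls were lost in refits with fewer libraries, in which fewer of all genes passed as well: without any 1 of the RPF libraries, 1176 to 1287 of all genes were called higher, against 1671 with all 9. The log2 fold changes in the refits that lost a member's call were 1.01 to 1.09 for Mrpl12, 1.20 to 1.34 for Mrpl47, 0.87 to 0.88 for Mrpl24, 0.74 to 0.77 for Mrps7, 0.86 to 0.92 for Mrpl30, 0.79 to 0.98 for Mrpl2, 0.52 to 0.70 for Mrps17 and 0.44 to 0.62 for Mrpl13. In all 9 refits that left out 1 library, Mrps18b, Mrpl15, Mrpl17, Mrpl20, Mrpl37 and Mrpl54 stayed called. Mrpl24 was lost without depleted replicate 3 or steady-state RPF replicate 1 (adjusted p = 0.0570 to 0.0581). Mrpl12 was lost without depleted replicate 1 or steady-state RPF replicate 1 or 2 (0.0540 to 0.0636), and Mrps7 without depleted replicate 3 or steady-state RPF replicate 1 or 2 (0.0543 to 0.0607). Mrpl30 was lost without depleted replicate 2 or 3 or steady-state RPF replicate 1 or 2 (0.0529 to 0.0622), and Mrpl47 without any steady-state RPF library or depleted replicate 1 or 3 (0.0595 to 0.0876). Mrps17 was lost without any 1 of the 6 RPF libraries (0.0543 to 0.138), and Mrpl2 also without FRC replicate 1 (0.0538 to 0.132). Mrpl13 stayed called in 1 of the 9 refits, that without FRC replicate 2 (0.0538 to 0.151 in the rest). The count of higher members was 9 without depleted replicate 1, 7 without depleted replicate 3, 6 without steady-state RPF replicate 1 and 7 without steady-state RPF replicate 2. With a term for the 2 libraries with almost no Y-linked counts, 12 members were higher and 0 lower, and Mrpl13, Mrpl2 and Mrps17 were not called (adjusted p = 0.0701 to 0.0801).

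**Figure D2:**
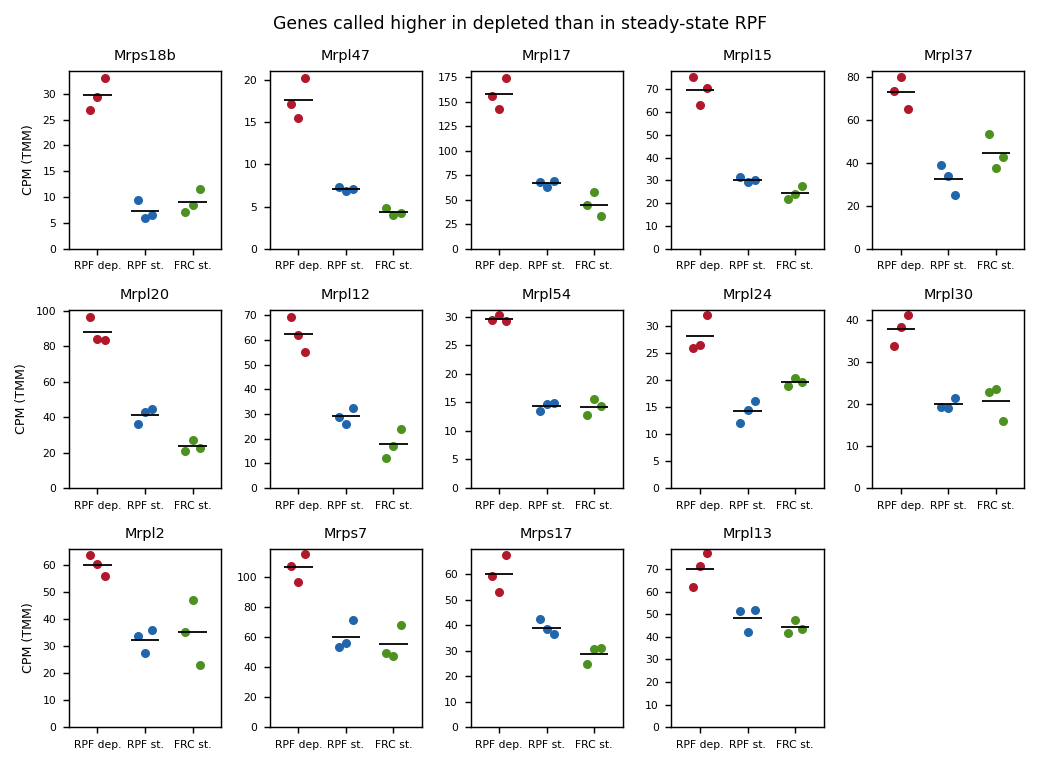
TMM-normalised CPM of the 14 members called higher in depleted than in steady-state RPF, with 1 point per library and the group mean as a line (RPF dep., depleted; RPF st. and FRC st., steady state; linear axes from 0). Depleted libraries lie above all steady-state RPF libraries in each panel; Mrps18b shows the largest difference, with 26.9 to 33.1 CPM against 5.96 to 9.37 CPM.

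Genes of other cell types also differed between these RPF groups. Of 13 red pulp macrophage markers, 9 fell and 1 rose after depletion. Their median log2 fold change was -4.47, and Cd5l, Adgre1 and C1qa were at 0 in all depleted libraries. The summed level of the list was 1488 to 1577 CPM in depleted RPF and 1786 to 2190 CPM in steady-state RPF. That sum includes Vcam1, which is also among the fibroblast markers, so it does not follow macrophage genes alone. Of 6 tested B and plasma cell markers, 2 fell, and the list summed to 82.5 to 120 CPM in depleted RPF and 182 to 378 CPM in steady-state RPF. None of the neutrophil, erythroid, endothelial or T cell markers was called by edgeR. At an unadjusted p under 0.05 and by DESeq2, 2 endothelial markers were lower, and limma-voom called 1 endothelial and 1 neutrophil marker lower. The neutrophil list summed to 2.37 to 48.2 CPM in depleted RPF and 47.3 to 350 CPM in steady-state RPF, and the erythroid list to 395 to 625 and 168 to 725 CPM. Of 8 cycling markers, 1 rose (Tyms), with sums of 89.6 to 135 CPM in depleted RPF and 77.3 to 97.3 CPM in steady-state RPF. Stromal markers moved too. Of 5 spleen stroma markers, 2 fell by edgeR and 4 by limma-voom, with sums of 475 to 612 CPM in depleted RPF and 1189 to 1409 CPM in steady-state RPF, and 3 of the 7 fibroblast markers fell. The part of these lists in the difference of the mitochondrial ribosomal protein genes was not tested.

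Between steady-state RPF and FRC, 13 of the 77 tested members were higher in RPF and 2 were lower (edgeR, adjusted p under 0.05), against 11.5 and 14.4% of all tested genes. The median log2 fold change was 0.46 over the members and -0.02 over all genes, and 62 members were on the higher side, against 49.2% of all. Libraries did not overlap for 36 members on the higher and 5 on the lower side, against 21.5 and 23.1% of all. These counts depended on the scaling. On the total count without TMM, a setting chosen after seeing the data, 51 members were higher and 1 lower, while over all genes 3935 were higher and 1342 lower, against 1734 and 2174 with TMM. There the median of all genes moved to 0.55 and that of the members to 1.03, so that the members lay 0.48 above all genes, against 0.49 with TMM. For depleted over steady-state RPF the same setting gave 11 members higher and 0 lower, and over all genes 1297 higher and 1864 lower, against 1671 and 1505 with TMM. The members then lay 0.45 above the median of all genes under both scalings.

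The largest called difference was in Mrps25, a mitochondria-specific small subunit protein (chromosome 6, 92169525 to 92184033). It had 55.1, 53.0 and 63.7 CPM in steady-state RPF, against 11.3, 20.8 and 11.0 CPM in FRC, and 46.6, 54.2 and 56.2 CPM in depleted RPF. RPF libraries of both groups stood above every FRC library, and the log2 fold change of steady-state RPF over FRC was 2.00 ± 0.27 (SE, adjusted p = 0.000674). Nr2c2, a nuclear receptor gene on the other strand, covers 69.8% of its exonic bases and averaged 8.25 CPM in depleted RPF, 27.0 CPM in steady-state RPF and 13.7 CPM in FRC. Mrps23, another mitochondria-specific small subunit protein, had 29.4, 27.1 and 44.0 CPM in steady-state RPF and 17.0, 7.75 and 7.52 CPM in FRC (log2 fold change 1.64 ± 0.36, adjusted p = 0.00990). Mrps34, needed for stability of the small subunit in mice, had 11.7, 11.4 and 14.5 CPM in steady-state RPF and 4.46, 7.17 and 4.03 CPM in FRC (1.26 ± 0.39, adjusted p = 0.0426). Mapk8ip3 and Nme3 overlap 77.8% of its exonic bases, and no source used here says whether the counting used strand, so reads of these partners cannot be told apart.

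In the large subunit, the mitochondria-specific Mrpl41 had 28.0, 26.3 and 20.0 CPM in steady-state RPF, against 8.56, 5.49 and 9.01 CPM in FRC. The groups did not overlap, and the log2 fold change was 1.69 ± 0.28 (SE, adjusted p = 0.00206). Mrpl43 had 29.0, 26.1 and 32.9 CPM in steady-state RPF and 10.9, 5.80 and 12.2 CPM in FRC (log2 fold change 1.60 ± 0.31, adjusted p = 0.00530). It shares 33.4% of its exonic bases with Twnk, the mitochondrial DNA helicase gene, which averaged 17.3 CPM in steady-state RPF and 14.6 CPM in FRC. Mrpl9, counterpart of bacterial L9, had 33.1, 56.5 and 41.7 CPM in steady-state RPF and 21.6, 16.8 and 10.7 CPM in FRC (1.42 ± 0.30, adjusted p = 0.00808). Pnpla7, whose start lies 935 bases from that of Mrpl41 on the other strand, moved the other way, with a log2 fold change of -1.87 (adjusted p = 0.0115).

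Mrpl20 was the only member called in both comparisons, with 36.4, 42.7 and 44.5 CPM in steady-state RPF and 21.1, 26.9 and 22.4 CPM in FRC (log2 fold change 0.81 ± 0.17, adjusted p = 0.00695). As the comparisons share the steady-state RPF libraries, the calls are not independent. The other members called higher in RPF were Mrpl19 (1.23), Mrpl36 (1.07), Mrps16 (1.00), Mrps14 (0.87), Mrpl51 (0.78) and Mrps12 (0.67). Mrps12 is the protein of the decoding centre, and had 30.8, 30.6 and 27.1 CPM in steady-state RPF and 18.6, 20.3 and 16.6 CPM in FRC (adjusted p = 0.0411). Mrpl19 shares 36.0% of its exonic bases with Gcfc2, which averaged 2.58 CPM in steady-state RPF and 0.254 CPM in FRC. Mrpl44, an exit tunnel protein of the RNase III fold, had the largest fold change without a call. It had 27.2, 21.6 and 22.8 CPM in steady-state RPF and 2.22, 5.60 and 0.0298 CPM in FRC. The FRC libraries lay far below but disagreed with each other (log2 fold change 3.19 ± 1.07, adjusted p = 0.0570).

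Lower in steady-state RPF than in FRC were Mrps6 and Mrps15, counterparts of bacterial S6 and S15. Mrps6 (chromosome 16, 92058270 to 92112227) had 18.9, 15.2 and 20.9 CPM in steady-state RPF, against 43.0, 55.2 and 43.5 CPM in FRC, and 23.2, 25.5 and 32.7 CPM in depleted RPF. All 6 RPF libraries lay below all FRC libraries, and the log2 fold change was -1.36 ± 0.23 (SE, adjusted p = 0.00214). Its exons overlap those of Slc5a3 and Gm49711 over 19.9% of their bases. Mrps15 had 17.1, 15.9 and 19.5 CPM in steady-state RPF, against 34.0, 33.6 and 27.0 CPM in FRC (log2 fold change -0.85 ± 0.20, adjusted p = 0.0133). In depleted RPF, Mrps6 and Mrps15 had log2 fold changes of 0.56 and 0.60 over steady-state RPF that did not pass the test (adjusted p = 0.113 and 0.0652).

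Between the spleen and lymph node cells, 10 of the 15 calls held in all 9 refits without 1 library: Mrps25, Mrpl41, Mrps23, Mrpl43, Mrpl9, Mrpl36, Mrps14, Mrpl20, Mrpl51 and Mrps6. Mrps15 was lost without steady-state RPF replicate 1 or 2 (adjusted p = 0.0528 to 0.0556), which left 1 lower member. Mrpl19 was lost without any depleted library, steady-state RPF replicate 1 or 2, or FRC replicate 2 or 3 (0.0629 to 0.130). Mrps12 was lost without depleted replicate 3 or any 1 of the 6 steady-state libraries (0.0514 to 0.110). Mrps16 (0.0555 to 0.159) and Mrps34 (0.0508 to 0.129) stayed called in 1 of the 9 refits, that without FRC replicate 2. In the refits that lost them, log2 fold changes were 1.03 to 1.24 for Mrpl19, 0.78 to 1.11 for Mrps16, 1.11 to 1.33 for Mrps34, 0.60 to 0.75 for Mrps12 and -0.83 to -0.78 for Mrps15. With the term for libraries with almost no Y-linked counts, 11 members were higher and 2 lower, and Mrps12 and Mrps34 were not called (adjusted p = 0.0586 and 0.0583).

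**Figure D3:**
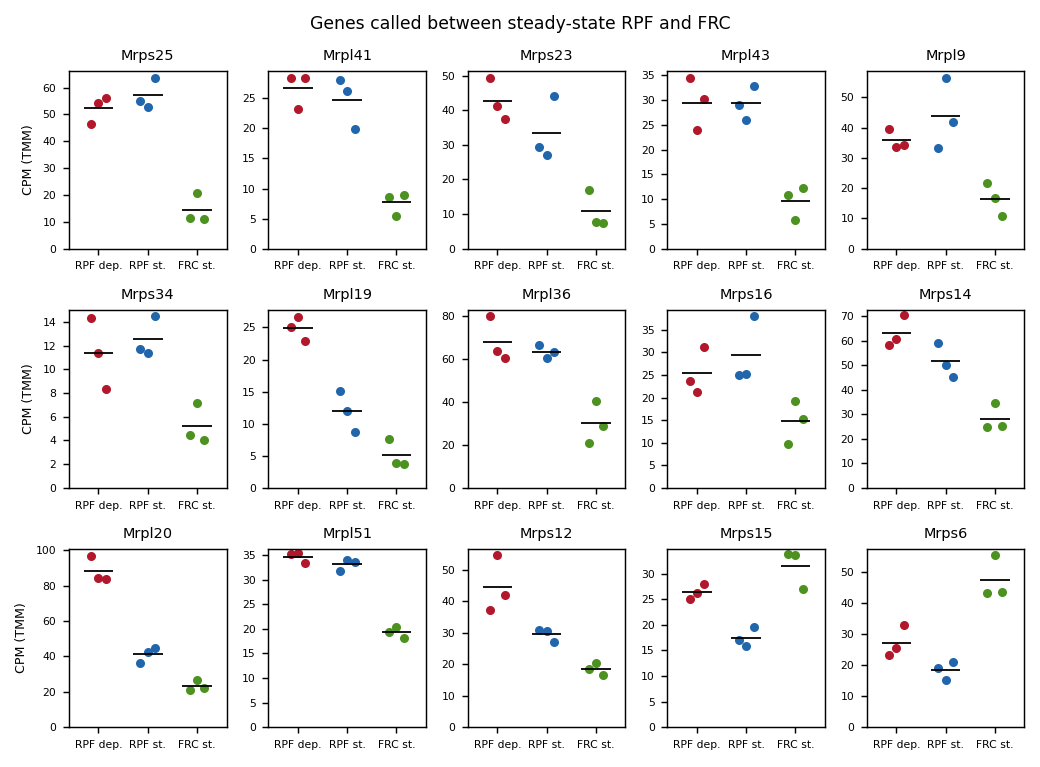
TMM-normalised CPM of the 15 members called between steady-state RPF and FRC, with 1 point per library and the group mean as a line (RPF dep., depleted; RPF st. and FRC st., steady state; linear axes from 0). RPF is higher in 13 panels, led by Mrps25 with 53.0 to 63.7 CPM against 11.0 to 20.8 CPM in FRC, and lower in Mrps15 and Mrps6.

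Other cell types' genes differed between these groups as well. Of 13 red pulp macrophage markers, 4 were higher and 2 lower in steady-state RPF than in FRC, with sums of 1786 to 2190 CPM in steady-state RPF and 2662 to 3643 CPM in FRC, where Vcam1 alone had 2446, 3069 and 3433 CPM. Of 7 erythroid markers, 2 were higher in RPF, with sums of 168 to 725 CPM in RPF and 0.507 to 99.1 CPM in FRC. Of 7 tested neutrophil markers, 3 were higher, with sums of 47.3 to 350 CPM and 0.990 to 6.56 CPM. Of 6 endothelial markers, 2 were higher in RPF, with sums of 34.7 to 63.7 CPM and 12.9 to 47.7 CPM. Of 8 cycling markers, 3 were higher and 1 lower in RPF, with sums of 77.3 to 97.3 CPM and 55.8 to 68.5 CPM. Of 6 tested B and plasma cell markers, 1 was lower in RPF, with sums of 182 to 378 CPM in RPF and 335 to 431 CPM in FRC. Of 5 spleen stroma markers, 4 were higher in RPF, and all 5 lymph node FRC markers and 6 of 7 fibroblast markers were lower. The part of these lists in these differences was not tested.

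Across all 9 libraries, 47 of 77 members (61.0%) had group means in the order depleted RPF, steady-state RPF, FRC from high to low, against 18.9% of all tested genes. The highest library of a member was a depleted one for 18, 17 and 21 members, by replicate, and the lowest an FRC one for 22, 14 and 26. With the mean standardised profile of the members, 31 members correlated at a Pearson r of at least 0.8, led by Mrpl20 (0.976), Mrpl17 (0.967) and Mrps18c (0.966), and 4 had an r under 0: Mrpl28 (-0.75), Mrps6 (-0.50), Mrps15 (-0.23) and Mrps28 (-0.05). Each member is part of that mean, and the 9 points share 3 groups, so these values describe the pattern only. The genes outside the list most like the profile were Slco3a1 (r = 0.996), Actn4 (0.995), Psmb3, Il2rg and Tagln (0.992 each). Slco3a1 averaged 790 CPM in depleted RPF, 248 CPM in steady-state RPF and 85.6 CPM in FRC.

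**Figure D4:**
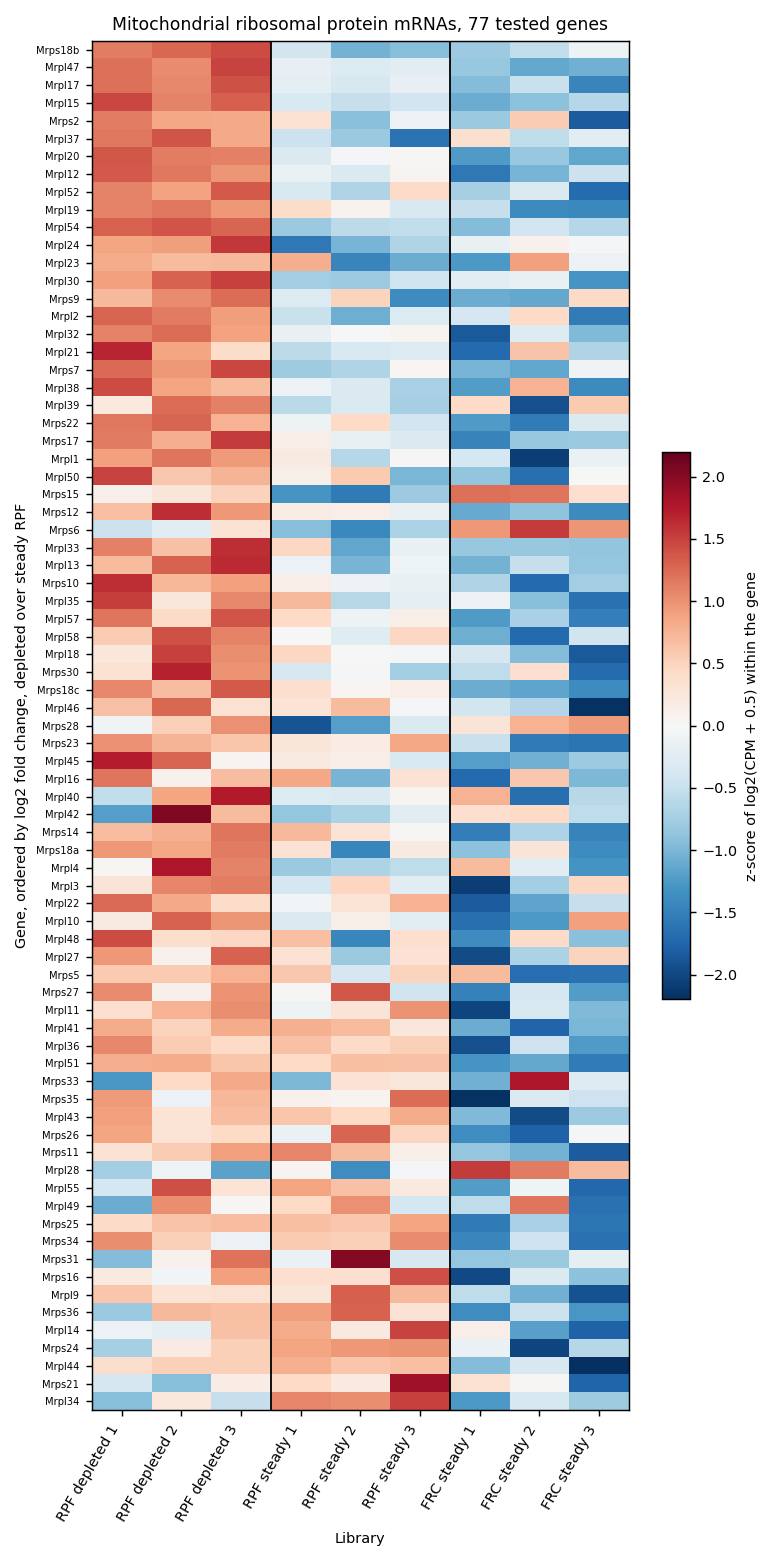
Level of the 77 tested members (rows, ordered by the log2 fold change of depleted over steady-state RPF) in the 9 libraries (columns), as z-scores of log2(CPM + 0.5) within each gene, red high and blue low. Most rows are red in depleted RPF and blue in FRC; Mrps6, Mrps15, Mrps28 and Mrpl28 are red in FRC.

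Of the 5 further subunits of the mitochondrial ribosome that bear other names, Dap3, a GTP-binding protein of the small subunit, had 62.2, 81.6 and 64.5 CPM in depleted RPF, 45.0, 37.1 and 49.1 CPM in steady-state RPF and 74.1, 79.2 and 84.8 CPM in FRC. Steady-state RPF was lowest, without overlap. Dap3 rose after depletion (log2 fold change 0.67, adjusted p = 0.0226) and was lower in steady-state RPF than in FRC (-0.86, adjusted p = 0.00570). The rise was lost without depleted replicate 2 or steady-state RPF replicate 1 or 2 (adjusted p = 0.0621 to 0.0921). Aurkaip1 and Gadd45gip1 were higher in steady-state RPF than in FRC (log2 fold changes 0.79 and 1.18, adjusted p = 0.0174 and 0.0348). Aurkaip1 was lost without steady-state RPF replicate 2 or FRC replicate 1 or 2 (0.0512 to 0.0683), and Gadd45gip1 stayed called in the refit without steady-state RPF replicate 2 only (0.0589 to 0.121 in the rest). Ptcd3 and Chchd1 were called in neither comparison, with log2 fold changes of 0.87 and 0.59 after depletion and 0.48 and 0.39 between RPF and FRC.

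Factors that act on the mitochondrial ribosome formed separate lists. After depletion, 14.3% of tested translation factors and 8% of assembly factors were called higher, against 11.1% of all tested genes. Called lower were 0 and 4%, against 9.96%. In steady-state RPF over FRC, 7.14 and 8% were higher, against 11.5% of all. Of 14 tested translation factors, 2 rose after depletion: Gfm1, the elongation factor that moves the ribosome along, with 80.1, 62.2 and 82.5 CPM in depleted RPF and 46.3, 34.3 and 26.6 CPM in steady-state RPF (log2 fold change 1.07, adjusted p = 0.0109), and Tufm, which brings in aminoacyl-tRNA (0.92, adjusted p = 0.0487). Of 25 assembly factors, the GTPase Noa1 (1.30, adjusted p = 0.0200) and Mterf3 (0.90, adjusted p = 0.0475) rose and Mrm1, a methyltransferase of the large rRNA, fell (-1.74, adjusted p = 0.0420). Gfm1 held in all 9 refits without 1 library. Noa1 was lost without depleted replicate 1 or steady-state RPF replicate 2 or 3 (0.0768 to 0.0788). Tufm held in 1 refit, that without FRC replicate 2 (0.0586 to 0.163 in the rest), Mterf3 in 3, those without steady-state RPF replicate 1 or FRC replicate 1 or 3 (0.0598 to 0.157), and Mrm1 in 2, those without FRC replicate 1 or 2 (0.0577 to 0.132). Between steady-state RPF and FRC, Mtfmt, which formylates the initiator tRNA (2.38, adjusted p = 0.0300), Rpusd4 (1.85, adjusted p = 0.00707) and Ngrn (1.75, adjusted p = 0.00867) were higher. Without FRC replicate 1, 5 assembly factors were higher. Mtfmt was lost without any steady-state RPF library or FRC replicate 1 or 2 (0.0722 to 0.0812).

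Of 11 genes for transcription and upkeep of mitochondrial DNA, edgeR called none in either comparison, with 0 higher and 1 lower at an unadjusted p under 0.05 after depletion and 0 between RPF and FRC. DESeq2 called 1 lower after depletion, and limma-voom 1 higher between RPF and FRC. Of 8 tested regulators of mitochondrial genes, 3 rose after depletion (37.5%, against 11.1% of all tested genes). In steady-state RPF, 2 were lower than in FRC (25%, against 14.4%). Myc, a transcription factor that activates ribosome and mitochondrial genes, had 279, 253 and 232 CPM in depleted RPF, 76.0, 44.2 and 39.1 CPM in steady-state RPF and 1513, 1808 and 1848 CPM in FRC, so that the FRC libraries were highest and steady-state RPF lowest. Its log2 fold change was 2.26 after depletion (adjusted p = 0.000301) and -5.02 for steady-state RPF over FRC (adjusted p = 3.62e-06). Pprc1, a coactivator related to PGC-1, had 174, 129 and 148 CPM in depleted RPF, 44.5, 58.6 and 72.8 CPM in steady-state RPF and 93.2, 103 and 100.3 CPM in FRC (log2 fold changes 1.36 and -0.75, adjusted p = 0.00130 and 0.0195). The lower call of Pprc1 was lost without steady-state RPF replicate 1 or 2 or FRC replicate 2 or 3 (0.0513 to 0.0637). Gabpb1, a subunit of GABP, rose after depletion (0.91, adjusted p = 0.0417) and held in 3 of the 9 refits, those without depleted replicate 2, steady-state RPF replicate 1 or FRC replicate 2 (0.0506 to 0.140 in the rest). Nrf1 averaged 99.4 CPM in depleted RPF, 77.3 CPM in steady-state RPF and 55.8 CPM in FRC and was called in neither comparison (adjusted p = 0.312 and 0.167).

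Genes on the mitochondrial chromosome took 0.538 to 0.678% of counts in depleted RPF, 0.519 to 0.720% in steady-state RPF and 1.98 to 2.24% in FRC. The deposited counts list 9 protein-coding genes of that chromosome, which is not its full set. These shares and the mRNA list below therefore leave some transcripts out. Of 8 tested mitochondrially encoded mRNAs, edgeR called none after depletion (0 at an unadjusted p under 0.05, 0 by DESeq2 and 0 by limma-voom), with a median log2 fold change of -0.01. Between steady-state RPF and FRC, 7 were lower in RPF and 0 higher, with a median of -1.99, and the 7 calls remained under RLE, upper quartile and total count scaling. mt-Nd2, a subunit of complex I, had 194, 148 and 164 CPM in depleted RPF, 171, 205 and 145 CPM in steady-state RPF and 576, 594 and 588 CPM in FRC. mt-Nd3 was not called, and mt-Co3 was listed at 0 in all 9 libraries. The large rRNA mt-Rnr2, low in these polyA libraries, fell after depletion, with 8.99, 8.77 and 9.60 CPM in depleted RPF, against 15.8, 21.7 and 14.4 CPM in steady-state RPF and 35.2, 40.3 and 40.7 CPM in FRC (log2 fold changes -0.92 and -1.16, adjusted p = 0.0209 and 0.00573). The first call was lost without any depleted library or steady-state RPF replicate 2 (0.0520 to 0.0846). The small rRNA mt-Rnr1 was not called in either comparison (adjusted p = 0.392 and 0.0941).

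The nuclear subunits of the respiratory chain were taken by symbol, a list that includes complex II, all of whose subunits are nuclear, and Ndufa4l2. Of 79 tested, 14 (17.7%) were higher and 4 (5.06%) lower after depletion (median log2 fold change 0.24), against 11.1 and 9.96% of all tested genes. Between steady-state RPF and FRC, 5 (6.33%) were higher and 2 (2.53%) lower (median 0.27), against 11.5 and 14.4% of all. Cyc1 of complex III had 214, 182 and 224 CPM in depleted RPF and 96.9, 94.3 and 86.2 CPM in steady-state RPF (log2 fold change 1.16, adjusted p = 0.000275), and Atp5b of the ATP synthase rose by 0.96 (adjusted p = 0.000241). Ndufa4l2 (-3.45, adjusted p = 0.00100) and Ndufv3 (-1.46, adjusted p = 0.00428) fell. The 14 higher calls were 3 to 8 without any 1 of the RPF libraries and 4 on the total count, and the 4 lower calls were 2 without depleted replicate 1. Between RPF and FRC, Ndufa4l2 (4.66) and Ndufc2 (1.08) were higher (adjusted p = 0.000155 and 0.000653). Ndufs4 (-0.72, adjusted p = 0.0310) and Sdha (-0.55, adjusted p = 0.0118) were lower. Sdha was lost without steady-state RPF replicate 3 (0.0523). Ndufs4 was lost in 6 refits, without depleted replicate 2, steady-state RPF replicate 2 or 3, or any FRC library (0.0536 to 0.109). The 5 higher calls were 2 without steady-state RPF replicate 2 or 3 or FRC replicate 3, 3 without steady-state RPF replicate 1, 9 without FRC replicate 2, and 49 on the total count, and the 2 lower calls were 0 to 1 without depleted replicate 2, steady-state RPF replicate 2 or 3 or any FRC library.

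The cytosolic ribosomal protein genes, whose products translate all nuclear mRNAs, had a median of larger size after depletion and of opposite sign between RPF and FRC, a difference between lists that was not tested. Of 94 tested, 55 rose (58.5%, against 11.1% of all tested genes) and 0 fell after depletion by edgeR. The median log2 fold change was 1.45, against 0.35 for the mitochondrial list. At an unadjusted p under 0.05, 65 were higher and 1 lower, and DESeq2 and limma-voom each called 0 lower. Between steady-state RPF and FRC, 0 were higher and 31 lower (33.0%, against 14.4% of all), with a median of -0.87, against 0.46 for the mitochondrial list. DESeq2 and limma-voom also called 0 higher, and none was higher at an unadjusted p under 0.05. On the total count the cytosolic list had 3 higher and 13 lower with a median of -0.30, and the mitochondrial list a median of 1.03. The 31 lower calls were 20 without steady-state RPF replicate 2, and 1 was higher without FRC replicate 2. After depletion, 1 was lower without depleted replicate 2. Several cytosolic ribosomal protein genes have near-identical processed copies in the genome, so their counts are uncertain.

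**Figure D5:**
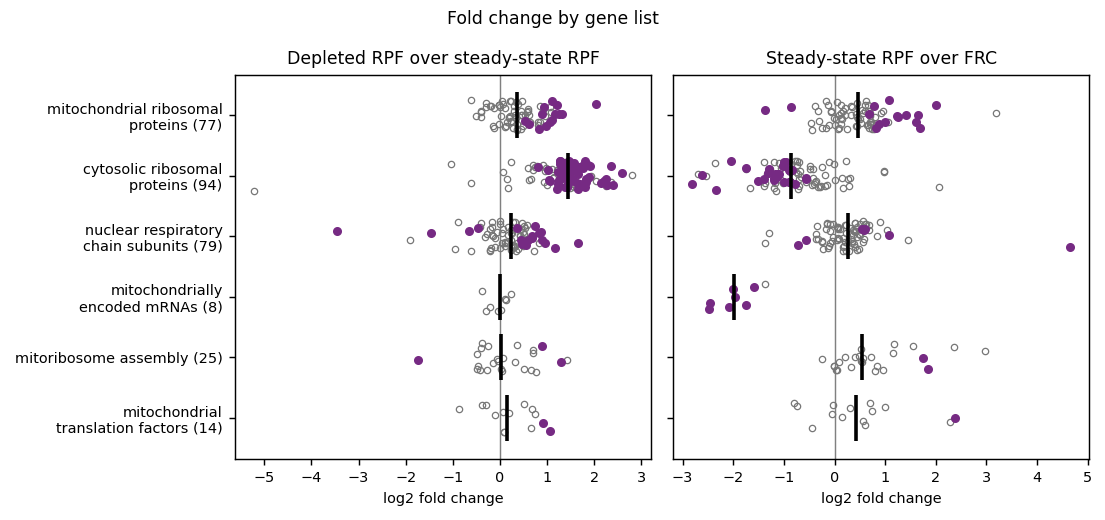
Log2 fold change (horizontal axes) of each tested gene in 6 lists (rows, number tested in brackets) for depleted over steady-state RPF (left) and steady-state RPF over FRC (right); filled points were called by edgeR at an adjusted p under 0.05, open points were not, and vertical bars are medians. The mitochondrial ribosomal proteins have medians of 0.35 and 0.46, the mixed cytosolic list taken by symbol 1.45 and -0.87, and the mitochondrially encoded mRNAs -0.01 and -1.99.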

How the data were processed

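PolyA RNA libraries of 3 groups of 3 were used, each from 2 pooled mice, so p-values measure the spread between pools; the 6 mice behind steady-state RPF and the 6 behind FRC are among 12 in the study, 6 of them toxin-treated, so these groups share mice, and no source used here pairs their libraries. The authors deposited raw counts per gene, used as they are, and median transcript lengths in bases, used here for values per kilobase. Per the submitters' processing notes, HTSeq 0.6.1p1, STAR 2.5.3a, Bowtie2 2.2.8 and cutadapt 1.10 were used, with mm10. No source used here gives the annotation release or strand setting, so reads of overlapping genes cannot be told apart. The 24 per-sample columns not used hold normalized values and 2 further libraries.

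Counts were fitted in R 4.3.3 with edgeR 4.0.16 (filterByExpr, TMM, robust quasi-likelihood, 1 term per group, 6 residual degrees of freedom, two-sided) over 15103 tested genes. A call needed an adjusted p (Benjamini-Hochberg, over all of them) under 0.05. CPM in the text are TMM-normalised. The 20 alternatives included limma 3.58.1 voom, DESeq2 1.42.0 and leaving out each library. The fit was tested on simulated counts for these libraries, with 100 genes of mixed abundance changed by each known fold. For depleted over steady-state RPF it called 7% of the 2-fold and 36% of the 4-fold changes, and for steady-state RPF over FRC 10 and 53%. The changed genes were drawn at random from all tested genes, which had higher median coefficients of variation than the members. Far fewer genes were changed than were called in the data, which makes the adjusted p stricter. These shares are therefore not the power for the members. A member that was not called is still not shown to be unchanged. Exon overlaps use the GENCODE M21 annotation (GRCm38), in which 33 members share exonic bases with another gene, 7 of them over at least 25%. Motifs were searched in RefSeq promoters. Figures were drawn with matplotlib 3.10.9.

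Members and gene lists were chosen with earlier results of these data known. Named were called members among the 6 largest changes each way at a mean of at least 5 CPM, the 5 highest and 5 lowest per kilobase, the Mrps18 paralogs, members of described roles, the further subunits, the rRNAs, the 2 most significant genes each way of each other list, and the 5 genes most like the profile. The remaining called members, Mrpl34, Mrps28, Apba3, Nrf1, Pnpla7, Ppp1r10 and overlapping genes were named after their values were seen.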

Additional observations from a re-analysis of the deposited data

How the results depend on the processing

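Over the 20 alternatives no call of a member changed direction. For depleted over steady-state RPF, the 14 called members kept their call in 219 of 280 values, and 5 kept it in every alternative (Mrps18b, Mrpl15, Mrpl17, Mrpl20 and Mrpl37). For steady-state RPF over FRC, the 15 kept it in 247 of 300, and 6 in every alternative (Mrps25, Mrpl41, Mrps23, Mrpl43, Mrpl9 and Mrps6). The count of 14 higher after depletion was 5 in a test against a 1.5-fold change, which is stricter by construction, and 6 to 17 with 1 library left out. The count of 0 lower was 1 with DESeq2 and 0 with each library left out. Against FRC, the count of 13 higher was 23 with upper quartile scaling, 23 with DESeq2, 5 against a 1.5-fold change, 51 on the total count and 9 to 14 with 1 library left out. The count of 2 lower was 1 without a filter, 1 against a 1.5-fold change, 1 on the total count and 1 to 2 with 1 library left out. Upper quartile scaling moved the median log2 fold change of all genes to 0.14 for RPF over FRC, and the total count to 0.55. Sdha, lower in RPF than in FRC, had a log2 fold change of 0.029 on the total count. Apart from these scalings and the stricter test, the cause was not tested. With a term for the libraries with almost no Y-linked counts (1 of steady-state RPF and 1 of FRC), the calls of Dap3, Gabpb1, Mrm1 and Tufm after depletion and of Gadd45gip1 against FRC were also lost (adjusted p = 0.0518, 0.0753, 0.0713, 0.0646 and 0.0523), and 8 respiratory chain subunits rose, against 14 without it. No paired analysis was possible because the labels give no replicate numbers and do not say which libraries of steady-state RPF and FRC came from the same mice. Mrpl53 had too few counts to be tested, and its overlap with Gm42688 leaves its level unknown.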
